A study of Mus musculus with 8 samples.

Results

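The transcripts described here are those of 9 genes that specify or maintain the epithelial state: the ETS factor genes Ehf and Elf3, the splicing regulator genes Esrp1 and Esrp2, the grainyhead factor gene Grhl2, the zinc finger repressor genes Ovol1 and Ovol2, the forkhead factor gene Foxa1 and the homeobox gene Dlx3. They were listed by name with earlier results of these data known, so member counts and medians beside all genes are a description only. Of the 9, 8 had a row among the 18102 genes of the deposited table. Esrp1 had no row and was not analysed here. Of the 8, Ehf, Elf3, Esrp2, Foxa1 and Dlx3 had a mean normalised read count of at least 10 over all libraries and were tested with 12498 genes in all. Ovol1 (mean 8.00), Grhl2 (3.55) and Ovol2 (0.760) stayed under that minimum and are given by their values.

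RNA was sequenced from NMuMG, an epithelial cell line from the mouse mammary gland that is widely used to study the epithelial-to-mesenchymal transition under TGFβ. The 8 libraries formed 4 groups of 2, in which either RREB1 label, WT or KO, was combined with either treatment. All cells were starved of serum for 6 h and given either 2.5 µM SB505124 for 6 h, which inhibits the TGFβ type I receptor kinase, or 100 pM TGFβ for 1.5 h. There was no untreated group, and treatment time differed between the groups. A rise or fall under TGFβ below is therefore against SB505124, and effects of the ligand, the inhibitor and time cannot be told apart. The column names carry a single KO code, KO1, and nothing says whether replicates came from separate cultures. The p-values therefore speak of the spread among these libraries, which may be technical. The transcript of Rreb1, the targeted gene, was not lower in the libraries labelled KO: its log2 difference from WT was 0.35 ± 0.08 (SE) with SB505124 and 0.34 ± 0.08 with TGFβ (adjusted p from limma, 0.00153 and 0.00184). Gene-level reads cannot show whether the protein was lost, so the label is used as a name only, written KO-labelled. Genotype below means this label. All KO-labelled libraries share 1 code, so loss of RREB1 and other differences of that line from WT cannot be told apart.

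Libraries held 25144204 to 32143113 reads, and 76.2% of the variance lay on a first principal component that split the libraries by genotype. Of the luminal markers, Krt8 (59377 to 115829) and Cdh1 (13123 to 26362) were high in every library, while Epcam lay between 0 and 36.6 and had no reads in the 4 KO-labelled libraries. The luminal markers Prlr and Csn2 reached 0.931 and 1.03 at most. Summed fibroblast markers ranged from 161 to 164 in WT and 46.5 to 61.3 in KO-labelled libraries under SB505124, and from 513 to 669 and 380 to 384 under TGFβ. Of the 7 fibroblast markers, Lum, Thy1, Pdgfrb and Col1a2 were near 0 (at most 13.3). Col1a1 ran from 11.2 to 498 and Pdgfra from 34.0 to 141, both highest in TGFβ libraries, while Dcn was at 86.2 and 94.1 in WT under SB505124, at 58.9 and 38.9 in WT under TGFβ and at most 0.864 in KO-labelled libraries. Summed basal markers reached 89.0, endothelial markers 41.1 and adipocyte markers 16.0 at most, and leukocyte markers ranged from 472 to 690. Of the basal markers, Krt5 was at most 3.43 in WT and 56.8 to 82.1 in KO-labelled libraries. Krt14 went the other way, with 3.00 to 46.3 in WT and no reads in KO-labelled libraries. The other basal markers reached 14.0 at most. Lyz2 (314 to 466) and Cd68 (129 to 202) made up most of the leukocyte sum, and Ptprc reached 11.6 at most. Their part in the results was not tested. In bulk RNA, fewer cells of a type and less RNA per cell cannot be told apart.

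As background, epithelial cells hold their state through factors that keep junction and polarity genes on and mesenchymal regulators off. GRHL2 activates genes such as those of E-cadherin and the claudins, OVOL proteins repress ZEB genes, and the epithelial ETS factors ELF3 and EHF act in glandular and surface epithelia. ESRP1 and ESRP2 bind RNA and favour the epithelial isoforms of transcripts such as those of Fgfr2, Cd44 and Enah, while FOXA1 opens chromatin in luminal mammary cells and DLX3 acts in skin and placenta. In many epithelial cell types a long exposure to TGFβ lowers several of these factors, whereas the exposure here was short.

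Read counts per kilobase of exon place the members on 1 scale for a rough comparison of levels between genes. The length is that of all annotated exons of a gene together, not of the transcript expressed, and the order depends on it. In WT cells under SB505124 the order was Esrp2 (316 normalised counts per kb), Elf3 (203), Foxa1 (93.4), Dlx3 (39.0), Ehf (7.95), Ovol1 (1.31) and Grhl2 (0.177), with no read of Ovol2. Neighbours in this order did not overlap between libraries, except Ovol1 and Grhl2. In KO-labelled cells under SB505124 it was Esrp2 (330), Ehf (264), Elf3 (208), Foxa1 (5.13), Ovol1 (3.13), Grhl2 (0.571) and Dlx3 (0.344), again with no overlap between neighbours and no read of Ovol2. Per length, Esrp2 was thus the highest member in both genotypes under SB505124, while Ehf stood above Elf3 and Dlx3 in KO-labelled cells and below both in WT. Under TGFβ, Elf3 led per length in WT (1007) and in KO-labelled cells (630). By counts not divided by length, Ehf had the highest mean in KO-labelled cells under both treatments. It was 1469 under SB505124 (Esrp2 1434, with overlapping libraries) and 2990 under TGFβ (Elf3 1397).

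**Figure D1:**
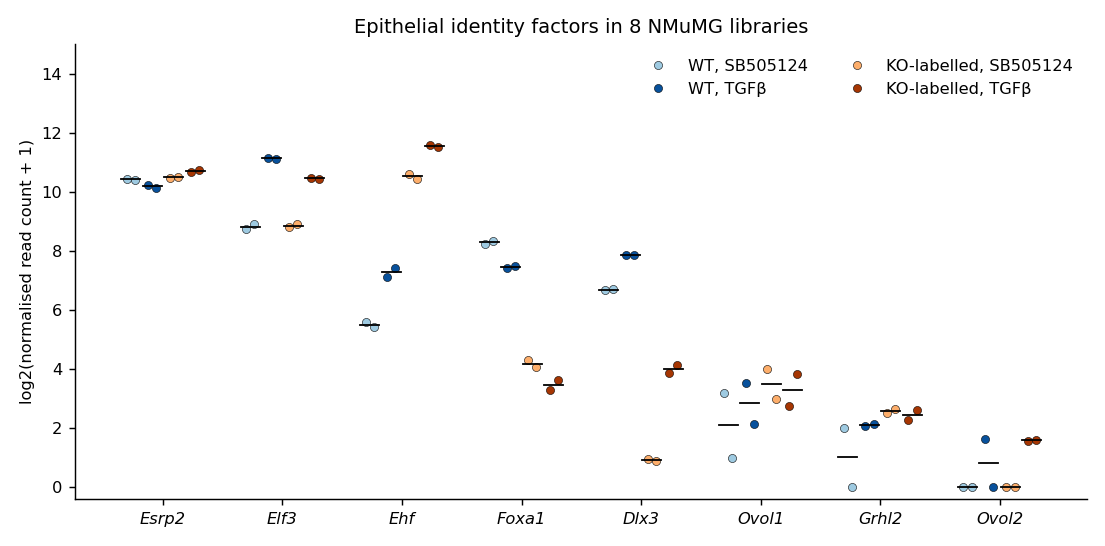
Level of each of the 8 members in the table, as log2(normalised read count + 1) on the vertical axis, with 1 point per library (2 per group) and a bar at the group mean of the log2 values. Ehf is higher and Foxa1 and Dlx3 are lower in all KO-labelled libraries, Elf3 and Ehf are higher under TGFβ in both genotypes, and Ovol1, Grhl2 and Ovol2 lie near the floor.

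Promoter sequence was at hand for 3 of the 9 members in the RefSeq table of build GRCm38.p6, the assembly also known as mm10. Elf3 and Foxa1 are shown because they are the tested members with an entry, and they moved in opposite directions under TGFβ. Each stretch lies upstream of the RefSeq start, outside every exon of GENCODE M21, and reads along the gene's own strand, which is the minus strand for both. It covers chr1:135258569-135258722 for Elf3 (bases -250 to -97 from the start) and chr12:57546122-57546361 for Foxa1 (bases -250 to -11). The Elf3 stretch is also upstream of the whole gene in GENCODE M21. The Foxa1 stretch is upstream of the RefSeq start only. It lies inside the GENCODE M21 gene (chr12:57540628-57546916), between exons, so the stretches are not alike in position. Capitals mark matches, on either strand, to 7 sequences that were searched: GTCTAGAC and CAGACA (SMAD), CACCTG (the E-box bound by SNAIL and ZEB repressors), TGANTCA (AP-1), AACCNGTT (grainyhead), TGTTTAC (forkhead) and CCGGAAG (ETS).
Elf3: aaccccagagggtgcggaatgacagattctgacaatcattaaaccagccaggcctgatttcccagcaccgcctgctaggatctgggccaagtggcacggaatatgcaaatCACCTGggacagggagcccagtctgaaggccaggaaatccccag
Foxa1: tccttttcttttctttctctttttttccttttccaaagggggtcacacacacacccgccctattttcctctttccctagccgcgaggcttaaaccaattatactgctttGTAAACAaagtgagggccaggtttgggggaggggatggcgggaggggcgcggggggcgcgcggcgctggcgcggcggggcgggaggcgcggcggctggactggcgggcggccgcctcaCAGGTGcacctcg
Elf3 held 1 E-box match, at bases -140 to -135. Foxa1 held 1 forkhead match, at -141 to -135, and 1 E-box match, at -23 to -18, both on the opposite strand. An E-box match occurs in 17.2% and a forkhead match in 3.16% of the 32817 promoter windows of the same 250 bases, so these matches describe the letters and nothing more. The searched AP-1, SMAD, ETS and grainyhead letters were not in these windows.

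The first comparison set TGFβ against SB505124 in WT cells. All 5 tested members passed, beside 43.3% of all genes tested: Elf3, Ehf and Dlx3 rose and Foxa1 and Esrp2 fell. Over all genes tested, 20.2% rose and 23.2% fell. The median log2 fold change was 1.16 over the 5 tested members and -0.01 over all genes tested. The groups of these 5 genes did not overlap, as was so for 69.8% of all genes tested.

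Elf3 (chr1:135253575-135258568, minus strand) encodes an ETS factor of epithelial cells that is also known as an inducible gene. Its normalised count in WT was 422 and 479 under SB505124 and 2239.9 and 2224 under TGFβ. Both TGFβ libraries stood far above both SB505124 libraries, by 2.31 ± 0.09 log2 units (SE, n = 2 against 2, limma adjusted p = 4.7e-13), or 4.96-fold. An antisense gene, Gm26642, overlaps Elf3 on the other strand, and the library kit does not mark strand, so reads of the pair cannot be told apart.

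Ehf (chr2:103263433-103303278, minus strand) encodes the ETS factor closest in role to ELF3. In WT its count was 46.6 and 42.1 under SB505124 and 139 and 169 under TGFβ, a rise of 1.77 ± 0.12 on the log2 scale (n = 2 against 2, limma adjusted p = 1.0e-09). Per length, Ehf made up 4.21% and 3.38% of the summed Ehf and Elf3 level in the WT SB505124 libraries and 2.41% and 2.94% in the WT TGFβ libraries. Elf3 was thus by far the larger of the pair in WT cells under either treatment.

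Dlx3 (chr11:95120119-95125296, plus strand) encodes a homeodomain factor. Its count in WT was 100.35 and 103 under SB505124 and 229 in each TGFβ library, a log2 rise of 1.16 ± 0.28 (n = 2 against 2, limma adjusted p = 0.00227). The replicates differed by less than 3 normalised counts while the groups differed 2.24-fold.

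Foxa1 (chr12:57540628-57546916, minus strand) was the member that fell most. Its count in WT was 299 and 322 under SB505124 and 172 and 176 under TGFβ, a shift of -0.83 ± 0.22 log2 units (n = 2 against 2, limma adjusted p = 0.00449), or 1.78-fold lower. Without WT SB505124 replicate 2 the value was -0.78 and the call was lost (limma adjusted p = 0.0548).

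Esrp2 (chr8:106130319-106136974, minus strand) was the only ESRP gene with a row. Its count in WT was 1389 and 1356 under SB505124 and 1209 and 1117 under TGFβ, a fall of 0.24 on the log2 scale with an SE of 0.08 (n = 2 against 2, limma adjusted p = 0.0247). The groups did not overlap, but the shift was small. The call was lost without WT SB505124 replicate 1 (-0.22, limma adjusted p = 0.138), without WT SB505124 replicate 2 (-0.26, 0.0849) or without WT TGFβ replicate 2 (-0.18, 0.148). Nfatc3 and 1810019D21Rik overlap Esrp2 on the other strand, and the kit does not mark strand, so reads of shared stretches cannot be told apart. Their means in WT were 2742 and 233 under SB505124 and 2242 and 218 under TGFβ. In KO-labelled cells they were 3316 and 331 under SB505124 and 2916 and 237 under TGFβ. Their part in the Esrp2 values was not tested.

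The same treatment was compared in KO-labelled cells. Elf3, Ehf and Dlx3 rose and Foxa1 fell, while Esrp2 did not pass: 4 of 5 tested members were called, beside 30.9% of all genes tested. Of these, Dlx3 met the minimum mean only through its WT libraries. Over all genes tested, 15.1% rose and 15.8% fell. The groups did not overlap for any of the 5, as was so for 67.1% of all genes tested. The median log2 fold change was 1.03 over the 5 tested members and -0.02 over all genes tested. The comparison shares no library with the one in WT.

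Elf3 went from 449 and 474 under SB505124 to 1409 and 1384 under TGFβ, which is 1.60 ± 0.09 log2 units (n = 2 against 2, limma adjusted p = 7.2e-11). Ehf went from 1553 and 1385 to 3088 and 2892, which is 1.03 ± 0.12 log2 units (n = 2 against 2, limma adjusted p = 1.7e-06). For both genes the TGFβ libraries stood above the SB505124 libraries with a wide gap. Per length, Ehf made up 57.9% and 53.7% of the pair under SB505124 and 46.6% and 45.4% under TGFβ.

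Dlx3 had 1 read in each SB505124 library (0.931 and 0.864 normalised) and 13.5 and 16.4 normalised counts under TGFβ. From 2 against 30 reads the ratio was 16.6, with an exact 95% counting interval of 4.22 to 144. The fitted log2 fold change was 3.06 ± 0.28 (limma adjusted p = 5.3e-08), a size that depends on the pseudocount: it was 1.36 with a pseudocount of 8 and 4.06 at most over the other settings. Dlx3 under TGFβ in KO-labelled cells thus stayed far below its level in WT cells under SB505124.

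Foxa1 had 18.6 and 15.5 normalised counts under SB505124 and 8.66 and 11.3 under TGFβ. These rest on 38 and 20 reads per group. The log2 fold change was -0.73 ± 0.22 (n = 2 against 2, limma adjusted p = 0.0155), but edgeR (adjusted p = 0.122) and DESeq2 (adjusted p = 0.187) did not call it. It was also lost without KO SB505124 replicate 1 (-0.60, limma adjusted p = 0.120) and without KO TGFβ replicate 1 (-0.55, limma adjusted p = 0.0997).

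Esrp2 had 1412 and 1456 under SB505124 and 1619 and 1696 under TGFβ, so both TGFβ libraries were above both SB505124 libraries. The log2 fold change of 0.21 ± 0.08 did not pass (n = 2 against 2, limma adjusted p = 0.0619, 95% interval 0.04 to 0.38). Adjusted p ranged from 0.0445 to 0.295 over the 18 other settings and was under the threshold in 4, among them those without WT TGFβ replicate 1 (0.0449) and without WT TGFβ replicate 2 (0.0445).

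Whether the genotypes answered TGFβ differently was tested as the difference of the responses, KO-labelled minus WT. On the log2 scale the rises of Elf3 and Ehf were smaller and that of Dlx3 was larger in KO-labelled cells, and the signed difference was positive for Esrp2. These were 4 of 5 tested members, beside 2.82% of all genes tested. Among them, Dlx3 met the minimum mean only through its WT libraries. Over all genes tested the signed difference was called positive for 2.25% and negative for 0.568%.

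Elf3 had the difference that held best, -0.71 ± 0.13 (log2, SE, n = 2 per group, limma adjusted p = 0.00323). It started level in the genotypes and ended lower in KO-labelled cells, as the counts above show, and it kept its call in 16 of 17 other settings. For Ehf the difference was -0.74 ± 0.17 (limma adjusted p = 0.0192). In absolute terms Ehf gained more in KO-labelled cells, since it started from 1469 ± 119 there against 44.3 ± 3.23 in WT (mean ± SD, n = 2 each). The Ehf call was lost in 8 of 17 other settings, among them those without WT SB505124 replicate 2 (limma adjusted p = 0.107), WT TGFβ replicate 2 (0.0538), KO SB505124 replicate 1 (0.0658), KO TGFβ replicate 1 (0.0824) or KO TGFβ replicate 2 (0.0778).

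Dlx3 had a difference of 1.90 ± 0.39 (log2, SE, n = 2 per group, limma adjusted p = 0.00876), which rests on the 2 reads of the KO-labelled SB505124 group. It was 0.25 with a pseudocount of 8 (limma adjusted p = 0.690) and 2.89 in DESeq2 (adjusted p = 0.137). The call was also lost without WT SB505124 replicate 1 (limma adjusted p = 0.0648) or replicate 2 (0.0658).

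Esrp2 had a difference of 0.45 ± 0.12 (log2, SE, n = 2 per group, limma adjusted p = 0.0445). Its TGFβ response was negative in WT and positive in KO-labelled libraries. The call was lost in 10 of 17 other settings, 7 of them settings without a single library, with WT TGFβ replicate 1 the exception. Among those 7 the limma adjusted p ran from 0.0513 without KO SB505124 replicate 2 to 0.216 without WT SB505124 replicate 1. It was 0.152 without WT SB505124 replicate 2, 0.114 without WT TGFβ replicate 2 and 0.101 without KO SB505124 replicate 1. It was 0.132 and 0.117 without KO TGFβ replicate 1 and 2.

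For Foxa1 the fall was -0.83 in WT and -0.73 in KO-labelled cells on the log2 scale, with a difference of 0.11 ± 0.31 (limma adjusted p = 0.906). The 95% interval of that difference ran from -0.53 to 0.75, which is wide in both directions.

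**Figure D2:**
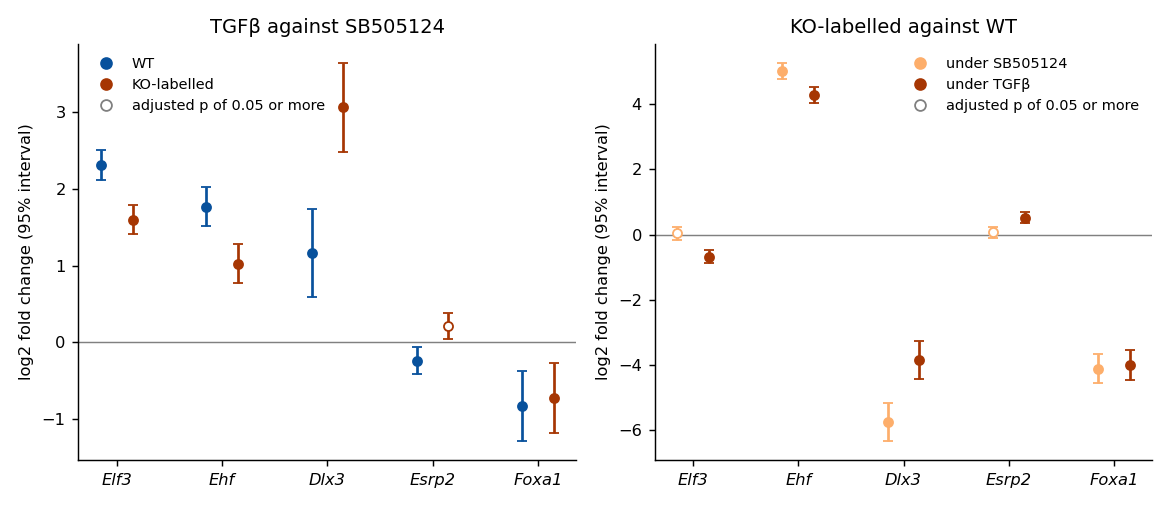
Fitted log2 fold changes of the 5 tested members with 95% intervals (vertical axis), for TGFβ against SB505124 in each genotype (left) and for KO-labelled against WT under each treatment (right), with open points where the adjusted p was 0.05 or more. Elf3, Ehf and Dlx3 lie above 0 in both genotypes on the left, and on the right Ehf lies more than 4 log2 units above WT and Foxa1 and Dlx3 more than 3 below.

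Under SB505124, Ehf was higher and Foxa1 and Dlx3 were lower in KO-labelled cells, so 3 of 5 tested members were called, beside 56.9% of all genes tested (29.2% higher and 27.7% lower). Elf3 and Esrp2 were not called. Dlx3, counted here and under TGFβ, met the minimum mean only through its WT libraries. The groups did not overlap for 4 of the 5, against 78.8% of all genes tested, with Elf3 the exception. Under TGFβ all 5 were called, beside 62.9% of all genes tested: Ehf and Esrp2 were higher and Elf3, Foxa1 and Dlx3 lower. Of all genes tested 32.7% were higher and 30.2% lower, and the groups did not overlap for 79.8%, as for all 5 members. The members' median log2 fold change was 0.04 under SB505124 and -0.68 under TGFβ, against 0.01 over all genes tested in each. These comparisons use the same libraries as those of treatment above, so they are not independent of them.

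Ehf was higher in KO-labelled cells by 5.02 ± 0.12 log2 units under SB505124 (n = 2 against 2, limma adjusted p = 1.3e-16), or 32.4-fold. Under TGFβ it was higher by 4.28 ± 0.12 (n = 2 against 2, limma adjusted p = 1.2e-15), or 19.4-fold. The lowest KO-labelled library, at 1385, was far above the highest WT library, at 169.

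Foxa1 was lower in KO-labelled cells under SB505124, with a log2 ratio of -4.11 ± 0.22 (n = 2 against 2, limma adjusted p = 9.3e-12), or 17.3-fold. Under TGFβ the value was -4.00 ± 0.22 (n = 2 against 2, limma adjusted p = 1.4e-11). No WT library was under 172 and no KO-labelled library above 18.6.

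Dlx3 was nearly without reads in KO-labelled cells under SB505124, with 2 reads against 202 in WT. The ratio was 114-fold lower, with an exact 95% counting interval of 31.0 to 944. Under TGFβ the log2 fold change was -3.86 ± 0.28 (n = 2 against 2, limma adjusted p = 8.1e-10), or 14.5-fold lower. Dlx3 was tested only because its WT libraries met the minimum mean, so its genotype calls are a description only.

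Elf3 did not differ detectably under SB505124 (0.04 ± 0.09, limma adjusted p = 0.746, 95% interval -0.15 to 0.23), and its libraries overlapped. Under TGFβ it was lower in KO-labelled cells (-0.68 ± 0.09, limma adjusted p = 3.5e-06). Esrp2 likewise was not called under SB505124 (0.06 ± 0.08, limma adjusted p = 0.533, 95% interval -0.11 to 0.24). Under TGFβ it was higher in KO-labelled cells (0.51 ± 0.08, limma adjusted p = 2.7e-05), or 1.43-fold. The genotype calls of the 5 members under both treatments were kept in all 18 other settings.

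The remaining members had few reads in all 8 libraries, and all 3 have genes annotated on the opposite strand whose reads the kit does not set apart. Ovol1, which encodes a zinc finger repressor, had 8.11 and 1.00 normalised counts in WT under SB505124 and 10.5 and 3.43 under TGFβ. In KO-labelled cells it had 14.9 and 6.91 under SB505124 and 5.78 and 13.3 under TGFβ. All 4 groups overlapped. Grhl2 (chr15:37233036-37363569) had 29 reads in all: 3 and 6 in WT and 11 and 9 in KO-labelled cells, under SB505124 and TGFβ. Ovol2 had no read in the SB505124 groups, which allows a mean of up to 1.51 normalised counts in WT and 1.34 in KO-labelled cells, and had 2 and 4 reads under TGFβ in WT and KO-labelled cells. With the minimum on low values removed, limma called none of these 3 genes in any of the 5 comparisons. Their lowest adjusted p was 0.0671, and 2 of the 15 unadjusted p were under 0.05 (Grhl2 in KO-labelled against WT under SB505124, 0.0286, and Ovol2 under TGFβ in KO-labelled cells, 0.0150). At this depth a difference in these genes was not detectable.

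Relatives of the members showed which member of each family was expressed. Of 18 listed relatives 11 were tested. In WT 3 rose and 3 fell under TGFβ, and in KO-labelled cells 5 rose and 4 fell, beside 43.3% and 30.9% of all genes tested called in either direction. KO-labelled against WT, 4 were higher and 5 lower under SB505124, and 4 higher and 3 lower under TGFβ, beside 56.9% and 62.9% called of all genes tested.

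FOXA factors were dominated by Foxa2, whose count per kb of exon was 1117 in WT and 1384 in KO-labelled cells under SB505124, against 93.4 and 5.13 for Foxa1. Under TGFβ Foxa2 was lower, with a log2 fold change of -1.93 in WT (2646 ± 139 to 696 ± 38.9) and of -2.02 in KO-labelled cells (limma adjusted p = 3.0e-12 and 1.1e-12). Foxa3 rose by 1.84 in each genotype. In KO-labelled cells Foxa3 was higher by 2.77 log2 units under SB505124 (33.5 against 4.03 normalised counts), the opposite direction to Foxa1. Foxa1 took 7.71% and 7.72% of the summed Foxa1 and Foxa2 level in the WT SB505124 libraries and 15.5% and 14.8% in the WT TGFβ libraries. In KO-labelled libraries its share was at most 0.941%.

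DLX genes other than Dlx3 were also lower in KO-labelled cells. Dlx1 (40.8 against 12.0 normalised counts under SB505124, log2 fold change -1.69) and Dlx2 (13.1 against 3.16, log2 fold change -1.76) were lower in KO-labelled cells, like Dlx3. Dlx2, again like Dlx3, met the minimum mean only through its WT libraries. Dlx1 rose by 0.74 in WT and by 1.40 in KO-labelled cells under TGFβ, and Dlx2 by 1.18 and 1.87. Dlx4, which lies next to Dlx3 on chromosome 11, was under the minimum, with 14 and 15 reads in WT and 2 and 2 in KO-labelled cells. The neighbours named from here on were looked up after the values were seen. The next protein-coding gene on the other side, the integrin gene Itga3, was also lower in KO-labelled cells under SB505124 (40159 against 13346), while Pdk2 was higher (50.8 against 88.0).

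Beside Ehf on chromosome 2, Apip differed little between genotypes under SB505124 (491 in WT, 495 in KO-labelled cells), while Cat was higher in KO-labelled cells (3332 and 7528). The adjacent ETS gene Elf5 had at most 3.72 normalised counts in any library. Beside Foxa1 on chromosome 12, Mipol1 was at 113 in WT and 165 in KO-labelled cells.

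Among the other ETS genes, Elf1 fell in WT (-0.79) and in KO-labelled cells (-0.61) under TGFβ, opposite to Elf3 and Ehf. Elf4 was the highest of the ETS relatives per length under SB505124, at 471 counts per kb in WT and 607 in KO-labelled cells. Grhl1 was the grainyhead gene with the most reads. Its level was 40.0 per kb in WT and 53.5 in KO-labelled cells under SB505124, and Grhl2 made up at most 1.18% of the summed Grhl1 and Grhl2 level in any library. Tfcp2l1, a more distant relative of the grainyhead genes, fell under TGFβ (-0.59 in WT, -0.71 in KO-labelled cells) and was lower in KO-labelled cells by -1.22 (log2) under SB505124.

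**Figure D3:**
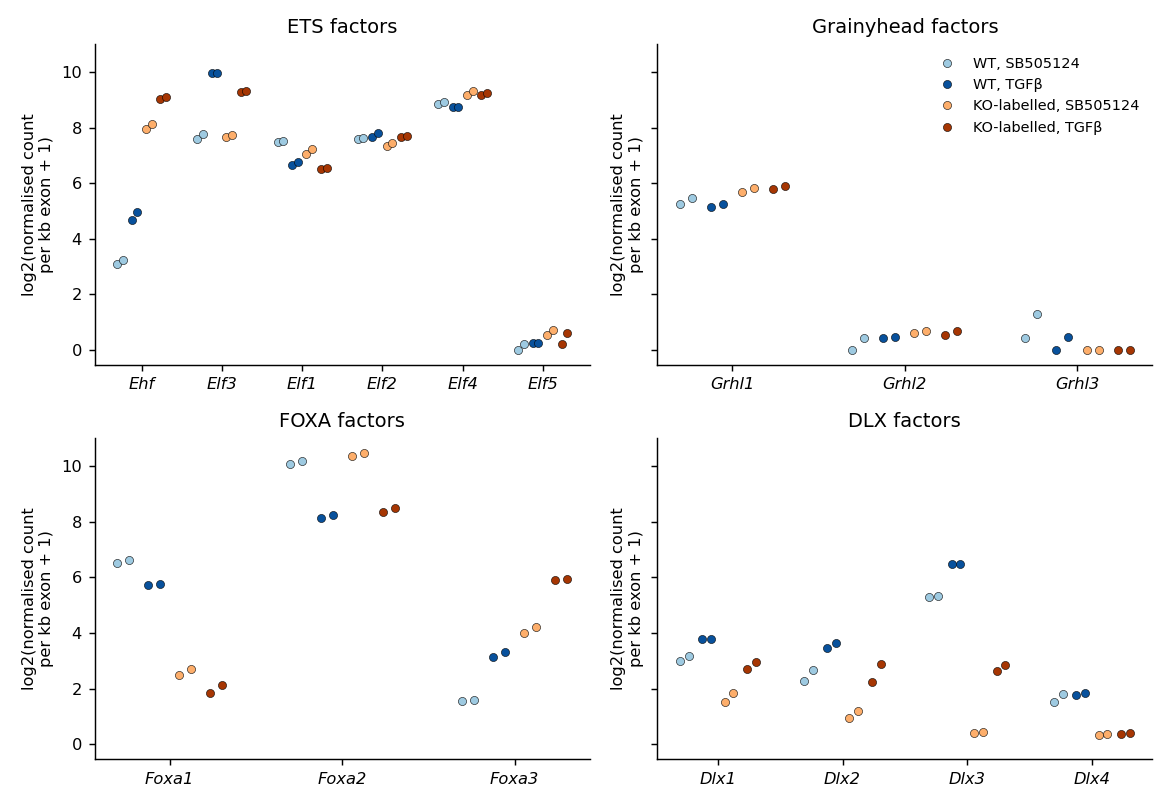
Levels of the members and their relatives per kilobase of exon, as log2(normalised count per kb + 1) on the vertical axis, with 1 point per library and the lower library of each group drawn on the left. Foxa2 lies above Foxa1 in every library, Dlx1 to Dlx4 are lower in KO-labelled libraries under SB505124, and Grhl1 lies above Grhl2 and Grhl3 throughout.

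Other genes of the epithelial programme were read from lists drawn up with earlier results of these data known, and are given by counts. Of 10 tested epithelial and mammary transcription factors, 2 rose and 4 fell in WT and 2 rose and 2 fell in KO-labelled cells under TGFβ (median log2 fold change -0.20 and 0.09). Of all genes tested 20.2% rose and 23.2% fell in WT, and 15.1% and 15.8% in KO-labelled cells. Runx1, a factor of luminal and basal mammary cells, rose from 1041 to 3000.3 in WT and from 690.1 to 3467 in KO-labelled cells. Klf5, a zinc finger factor of proliferating epithelia, fell by 1.76 on the log2 scale in WT and by 0.94 in KO-labelled cells. Both passed for the difference of the responses (0.80 for Runx1 and 0.82 for Klf5). Cebpb rose by 0.41 and 1.16, and Stat5b was higher in KO-labelled cells under SB505124 (0.58).

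Of 16 tested splicing regulators other than the ESRP genes, 3 rose and 4 fell in WT and 3 rose and 3 fell in KO-labelled cells under TGFβ, near the background of 43.3% and 30.9% of all genes called. Rbm47, an RNA-binding protein gene of epithelial cells, fell the most, by 1.00 on the log2 scale in WT (2384 to 1188) and by 1.16 in KO-labelled cells (4140.5 to 1847). Esrp2 moved far less. Mbnl1, which encodes a splicing factor of the muscleblind family, fell by 0.56 and 0.45. Mbnl2 and Mbnl3 of that family were lower in KO-labelled cells under SB505124 (-0.59 and -0.75).

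Transcripts whose splicing ESRP proteins control were read at the gene level only, which says nothing about isoforms. Of 13 tested, 1 rose and 5 fell in WT and 1 rose and 2 fell in KO-labelled cells under TGFβ, where 43.3% and 30.9% of all genes were called. KO-labelled against WT under SB505124, 8 were higher and 2 lower (median log2 fold change 0.31, against 0.01 over all genes tested), beside 29.2% higher and 27.7% lower of all genes tested. Fgfr2, a receptor gene with an epithelial and a mesenchymal isoform, was at 318 in WT and 2108 in KO-labelled cells, a log2 fold change of 2.73 (limma adjusted p = 2.4e-14). Enah (1.01) and Ctnnd1 (0.64) were higher and Cd44 was lower (-0.90) in KO-labelled cells.

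Of 22 listed targets linked to GRHL2 and OVOL, 11 were tested. Under TGFβ 3 rose and 3 fell in WT, and 5 rose and 1 fell in KO-labelled cells, against 43.3% and 30.9% of all genes called. KO-labelled against WT under SB505124, 5 were higher and 1 lower, against 56.9% of all genes called. These counts leave out listed targets under the minimum, which were looked up after their values were seen. Among those, Epcam, Cdh3 and Spint1 had 12, 35 and 17 reads in WT and none in KO-labelled cells under SB505124. Only Marveld3 had a higher mean in KO-labelled cells there (9.59 in WT and 10.6). Ocln, which encodes the tight junction protein occludin, was at 608 in WT and 1865 in KO-labelled cells, a log2 fold change of 1.61, and fell under TGFβ by 0.58 and 0.31. Mal2, a gene of apical transport, had 1967 reads in WT and none in KO-labelled cells under SB505124, which was at least 737-fold lower (3 reads over the group). Mal2 met the minimum mean only through its WT libraries. Cdh1 was higher in KO-labelled cells under SB505124 (0.44), and Cldn4 rose in both genotypes from 1 read in WT and 2 in KO-labelled cells to 604 and 982. Cldn4 met the minimum mean only through its TGFβ libraries.

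Of 6 tested repressors of the epithelial state, 2 rose and 1 fell in WT and 2 rose in KO-labelled cells under TGFβ, near the 43.3% and 30.9% of all genes called. Zeb1 rose by 0.35 in WT (921 to 1175) and by 0.28 in KO-labelled cells (1347 to 1634). Snai1 had the largest rise of the list in WT, from 21.7 to 881, and rose from 2.66 to 13.0 in KO-labelled cells (6 and 26 reads per group). KO-labelled against WT under SB505124, 2 of the 6 were higher and 4 lower, beside 56.9% of all genes called. Zeb1 (0.55 on the log2 scale) and Tcf4 (0.51) were higher, and Snai1 (-2.66), Snai2 (-1.27), Twist2 (-2.65) and Zeb2 (-0.42) were lower. Snai1 and Twist2 met the minimum mean only through their WT libraries, so their lower calls are a description only. They had 6 and 15 reads in KO-labelled cells under SB505124. Tcf4 and Zeb2 lay outside the naming rule and were added after their values were seen.

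**Figure D4:**
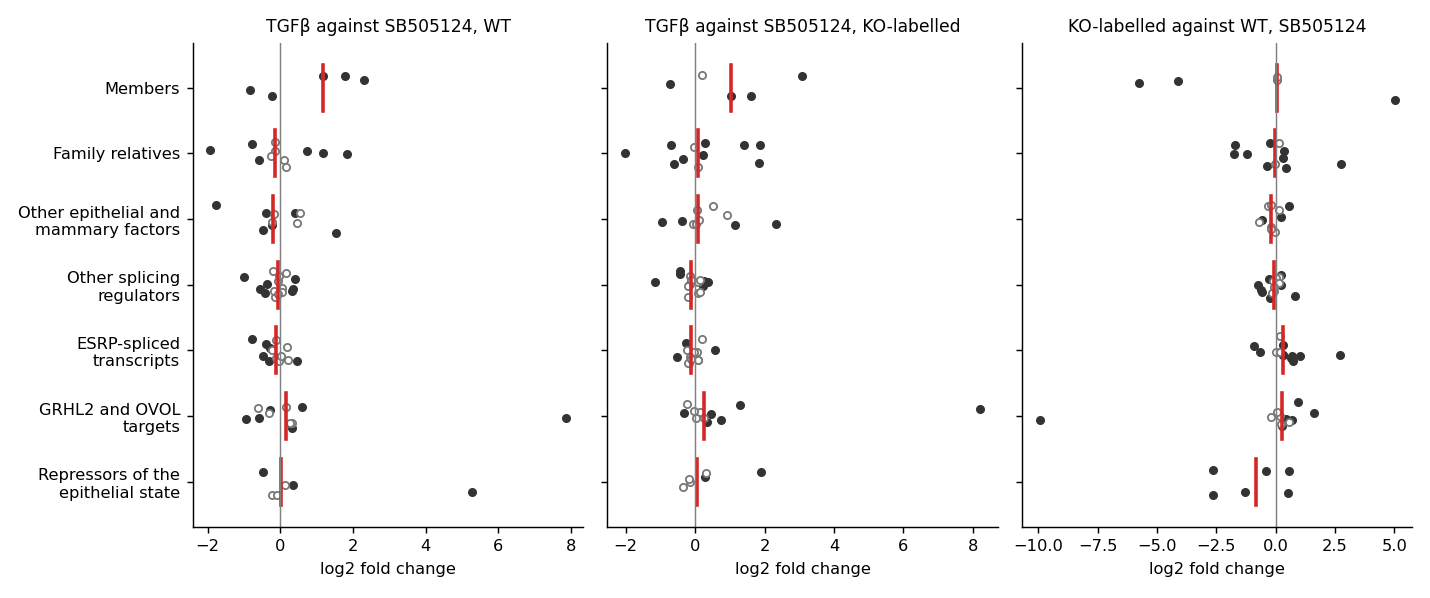
Log2 fold changes (horizontal axis) of every tested gene of the members and of 6 related lists, in 3 comparisons, with filled points for genes that passed, open points for those that did not, vertical jitter for legibility and a red line at each median. The list medians lie close to 0 in WT under TGFβ except for the members (1.16), and single genes such as Cldn4, Snai1 and Mal2 stand far from their lists.

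Genes whose levels ran most like each member over the 8 libraries were found among 10425 genes with a mean of at least 50. The libraries share 4 group means, so high correlations are common and are given only as a description. Ehf was followed most closely by Mtus1, Plod2 and Atp2b4 (Pearson r of log2 values 0.998, 0.998 and 0.997), and Atp2b4 spanned 104 in WT under SB505124 to 2790.0 in KO-labelled cells under TGFβ. Elf3 was followed by Cd3eap, Ykt6 and Usf1 (each 0.991). Usf1 went from 1067 to 1826 in WT and from 1060 to 1625 in KO-labelled cells. Foxa1 was followed by Ints9 (0.999), Kctd9 (0.998) and Nfx1 (0.997), which lie on chromosomes 14, 14 and 4, and whose range was much narrower: Ints9 stood at 859 and 776 in WT and 505 and 452 in KO-labelled cells. Dlx3 was followed by Pcolce2 (0.997), Tes (0.996) and Plp2 (0.996). Esrp2 was followed by Ormdl2 (0.973), Vgll4 (0.961) and Card14 (0.960), and Card14 went from 172 to 84.7 in WT and from 147 to 272 in KO-labelled cells under TGFβ.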

How the data were processed

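Total RNA of 8 libraries was sequenced after preparation with the TruSeq RNA Sample Prep Kit v2, per the labels' protocols. For each gene and library the authors deposited a signal value, a read count divided by the library's size factor. The submitters' processing notes name FastQC 0.11.5, then HTSeq 0.6.1p1 and DESeq2 3.4, and mm10 as the build. Which aligner was used is not given in the sources used here. All values (100%) came out as whole reads after division by a step per library, to within 0.01 reads, so count models could be run.

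Values were log2 transformed after adding 1, so changes of low genes are understated. Genes with a mean of at least 10 were fitted with limma 3.58.1 (R 4.3.3), using 4 group means and a variance trend over all 8 libraries. Benjamini-Hochberg adjustment covered the 12498 genes fitted, and the threshold was 0.05. Alternatives were other pseudocounts, filters and scaling, no trend, a replicate block, the compared libraries alone, edgeR 4.0.16, DESeq2 1.42.0 and each library left out. Exact binomial intervals (95%) and the floor of 3 reads cover counting error only. Named from each list were up to 4 genes with the smallest limma p in any comparison, plus relatives with reads, and the 3 genes of most similar pattern per tested member, predicted genes left out. Exon lengths and coordinates come from GENCODE M21 on GRCm38. Members and lists were chosen with earlier results of these data known.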

Additional observations from a re-analysis of the deposited data

Results flagged for a closer look

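For 4 members the TGFβ response was called different between the genotypes in the main fit (limma, n = 2 per group, adjusted over all genes tested). On the log2 scale, KO-labelled minus WT, the difference was -0.74 for Ehf (adjusted p = 0.0192), -0.71 for Elf3 (adjusted p = 0.00323), 0.45 for Esrp2 (adjusted p = 0.0445) and 1.90 for Dlx3 (adjusted p = 0.00876). Of 17 other settings, the call was lost in 8 for Ehf, 1 for Elf3, 10 for Esrp2 and 5 for Dlx3. The Dlx3 value rests on 2 reads in the KO-labelled SB505124 group and was 0.25 with a pseudocount of 8. Over the other settings the adjusted p reached 0.147 for Ehf, 0.0796 for Elf3, 0.216 for Esrp2 and 0.690 for Dlx3.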

How the results depend on the processing

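The 25 fold changes of the 5 tested members were recomputed under up to 18 other settings, 445 values in all: 408 kept direction and side of the threshold, 33 lost the call, 4 gained it and none reversed. Members called for the difference of the responses numbered 4, but 1 without a filter on low values and 1 without a variance trend, where all genes called fell from 352 to 134 and 47. The cause was not tested. With the replicate number as a block, 2 members (Dlx3 and Elf3) and 252 genes were called. The deviations of same-numbered libraries correlated by 0.35 between the WT groups and 0.20 between the KO-labelled groups, and by -0.41 to 0.05 across genotypes. The labels state no block, so the main fit treated the libraries as independent, which these values do not establish. Leaving out each library gave 1 to 4 members for the difference of the responses, 3 to 5 for TGFβ in WT, 3 to 5 for TGFβ in KO-labelled cells, and 3 and 5 for the genotypes under SB505124 and TGFβ. All genes called for the difference numbered 141 and 168 without WT SB505124 replicates 1 and 2, 150 without KO TGFβ replicate 1 and 1027 without WT TGFβ replicate 1. Those called for TGFβ in KO-labelled cells fell from 3864 to 2332 without KO SB505124 replicate 1 and 2320 without KO TGFβ replicate 2. Counting error limits Ovol1, Grhl2, Ovol2 and, in KO-labelled cells, Dlx3 and Foxa1.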
